A study of Mus musculus with 6 samples.

Results

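Genes of the nuclear pore complex and of the receptors that carry cargo through it were compared between 2 kinds of engineered mouse macrophages. The members were chosen by gene symbol: the numbered nucleoporins, the importins, exportins, transportins and Ran binding proteins, and Tpr, Ndc1, Pom121, Aaas, Rae1, Seh1l, Sec13, Ran and Cse1l. This gave 63 of the 22063 genes in the deposited table. No measured value enters the symbol rule, but the members were chosen with earlier results of these data known. RNA sequencing covered 3 samples of CAR-Trem2-Ms and 3 of CAR-Ms. All 6 were labelled as macrophages from skin, were cultured for 7 days in DMEM with M-CSF at 20 ng/mL, the factor that drives macrophage growth, and received a lentivirus that makes them carry a chimeric antigen receptor. The labels of CAR-Trem2-Ms also give a genotype field marked positive (spelled TERM2+), 24 h with 1 µM VD3 and a flow cytometry sort, whereas the genotype of CAR-Ms is given as WT. A protocol shared by all samples also mentions VD3, so the labels do not settle whether CAR-Ms received it. Trem2 status, the sort and possibly VD3 therefore cannot be told apart, and no label says whether replicates were separate cultures or animals. The p-values therefore set the difference between groups only against the spread among these samples, and that spread may be technical.

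The nuclear pore complex is a ring of nucleoporins set into the nuclear envelope: scaffold rings (the Y complex and the inner ring), membrane anchors, a central channel lined with phenylalanine-glycine repeats, a cytoplasmic face and a nuclear basket. Importins and exportins pass through the repeats with their cargo. Importin alpha proteins read the classical import signal and hand the cargo to importin beta (Kpnb1), while other importin beta family members bind cargo directly. The small GTPase Ran sets the direction, because Ran-GTP in the nucleus releases imported cargo and is needed for exported cargo to bind. In macrophages these receptors carry signal-activated transcription factors such as NF-kB subunits into the nucleus.

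Total counts, in units of 1e6, ran from 9.8 to 12.56 in CAR-Trem2-Ms and from 14.2 to 15.91 in CAR-Ms. Mitochondrially encoded genes took 13.4 to 13.8% of reads in CAR-Trem2-Ms and 4.6 to 4.7% in CAR-Ms. Of 8 macrophage markers, 7 were tested, 5 higher and 2 lower, and their summed level was 3922.2 to 3945.5 CPM in CAR-Trem2-Ms and 3452.3 to 3476.8 CPM in CAR-Ms, where CPM is counts per 1e6 reads with TMM scaling factors. Per length the sum went the other way, with 2943.5 to 2996.9 TPM in CAR-Trem2-Ms and 3965.2 to 4082.7 TPM in CAR-Ms, and on log2(TPM + 1) 2 of these markers were higher and 4 lower. Mertk, the eighth, was below the filter on low counts. Neutrophil markers summed to 2.56 to 5.95 CPM in CAR-Trem2-Ms and 18.4 to 34.7 CPM in CAR-Ms, with all 5 tested of 8 lower. B cell markers summed to 2.76 to 4.04 CPM in CAR-Trem2-Ms and 8.93 to 13.9 CPM in CAR-Ms, with 4 of 4 lower. Endothelial markers summed to 0.92 to 2.23 CPM in CAR-Trem2-Ms and 3.38 to 4.85 CPM in CAR-Ms, with both tested of 4 lower. Dendritic cell markers summed to 2.82 to 4.10 CPM in CAR-Trem2-Ms and 2.09 to 2.53 CPM in CAR-Ms, T cell markers to 18.1 to 26.6 CPM in CAR-Trem2-Ms and 20.3 to 23.8 CPM in CAR-Ms, and fibroblast markers to 3.18 to 4.18 CPM in CAR-Trem2-Ms and 1.71 to 2.76 CPM in CAR-Ms. Of the 6 T cell markers 4 were tested, with Cd3d (log2 3.65) and Cd8a (log2 4.57) higher and Lck (log2 -0.43) lower, and the 1 tested marker each of dendritic cells and fibroblasts did not pass. Of the 5 keratinocyte markers, 4 had 0 reads in all samples. The part of these cell types and of the mitochondrial share in the results below was not tested.

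Most members were lower in CAR-Trem2-Ms. Of the 60 members that passed the filter on low counts, 45 fell, 9 rose and 6 did not pass the test (edgeR quasi-likelihood test, Benjamini-Hochberg adjusted p under 0.05 over all 11402 tested genes). The same rule called 81.1% of all tested genes, 40.9% higher and 40.1% lower, against 90.0% of the tested members, 15.0% higher and 75.0% lower. At least 2-fold falls were found in 22 members, against 14.3% of all tested genes, and at least 2-fold rises in 2 members, against 18.7%. The median log2 fold change, CAR-Trem2-Ms over CAR-Ms, was -0.77 over the tested members and 0.03 over all tested genes. The levels of the groups did not overlap in 54 tested members, against 81.8% of all tested genes. Per length, the members summed to 2052.5 ± 16.2 TPM in CAR-Trem2-Ms and 5645.2 ± 35.2 TPM in CAR-Ms (SD, n = 3 each), where TPM is transcripts per 1e6 within a library. The summed level of the members was 6331.0 to 6443.4 CPM in CAR-Trem2-Ms and 12181.3 to 12261.9 CPM in CAR-Ms, a smaller fall than in TPM. In bulk RNA, fewer cells of a type and less RNA per cell cannot be told apart.

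The size of the fall depended on scaling. Upper quartile factors put the median over all tested genes at 0.26 and that over members at -0.54. Scaling by total counts put them at -0.10 and -0.90, and log2(TPM + 1), a per-length scale, at -0.63 and -1.39. With upper quartile factors 40 of 60 members were called lower and 13 higher, against 31.6% and 50.1% of all tested genes. With total-count scaling 48 were lower and 7 higher, against 44.7% and 36.4%. On log2(TPM + 1) 53 of 59 were lower and 2 higher, against 64.2% and 17.5%. The median of the members minus that of all genes was -0.80 on the log2 scale; the TMM, RLE, upper quartile and total-count scalings shift every gene alike, so this difference cannot change between them and is no check on it. The difference was -0.76 on log2(TPM + 1). A correction of each library for GC content and transcript length gave a difference of -0.54. Across TMM, RLE, upper quartile and total-count scaling, log2(TPM + 1) and the correction, 38 members were called lower each time, and 2 members, Nup62 and Ranbp6, were called higher each time.

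**Figure D1:**
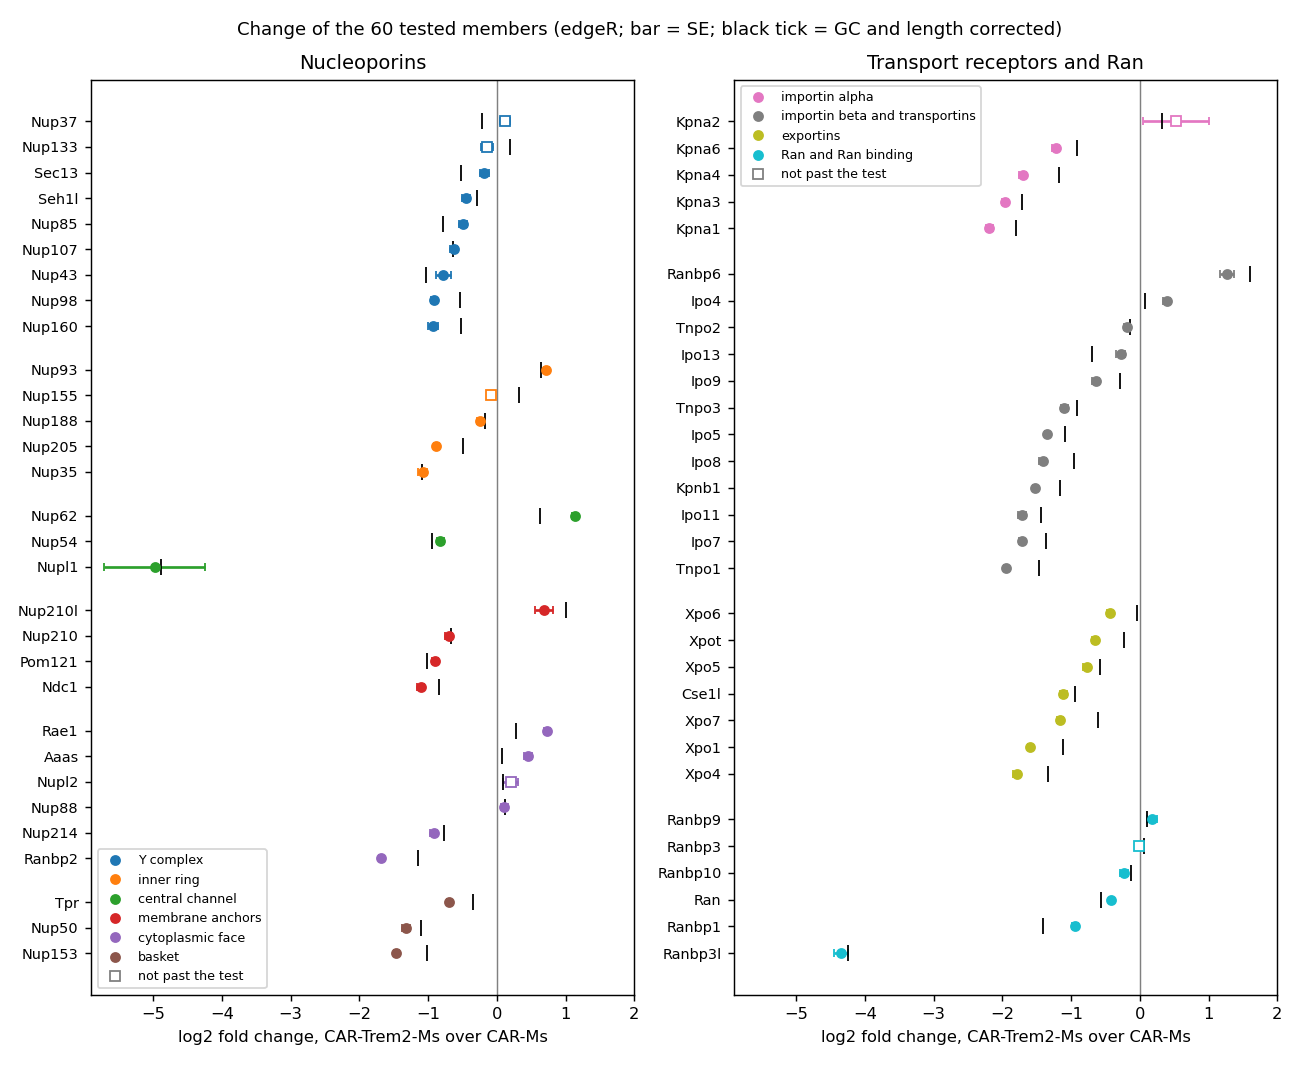
Log2 fold change (CAR-Trem2-Ms over CAR-Ms, x axis) of the 60 tested members by role, with bars for the standard error, open squares for the 6 members not past the test and black ticks for the value corrected for GC content and length. Importin alpha genes and exportins lie left of 0 apart from Kpna2, while Ranbp6 and Nup62 lie furthest right. Nup37, Nup133, Nup155 and Ranbp3 have a tick on the other side of 0, and the value of Nupl1 rests on 2 reads in CAR-Trem2-Ms and depends on the fit's prior count.

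Ran itself fell modestly. The gene lies on the plus strand of chromosome 5 (129020069 to 129024323, GRCm38, ENSMUSG00000029430). It had levels of 558.6, 563.4 and 546.6 CPM in CAR-Trem2-Ms, against 735.1, 744.8 and 745.0 CPM in CAR-Ms. Every CAR-Trem2-Ms sample lay below every CAR-Ms sample. The log2 fold change was -0.42 ± 0.02 (SE; edgeR, adjusted p = 1.2e-15), and 15.4% of the 50-base words in Ran transcripts also occur in other genes, so part of its reads could be shared, as could part of those of Ranbp1 (24.3%). Ranbp1, which helps to stimulate GTP hydrolysis by Ran, read 160.7, 157.1 and 182.9 CPM in CAR-Trem2-Ms, against 328.3, 321.7 and 309.5 CPM in CAR-Ms, a log2 fold change of -0.94 ± 0.04 (SE; adjusted p = 6e-18). These were the most abundant members of their group per length: Ranbp1 averaged 202.8 ± 17.8 TPM in CAR-Trem2-Ms and 634.4 ± 14.6 TPM in CAR-Ms, and Ran averaged 250.9 ± 4.14 TPM in CAR-Trem2-Ms and 539.3 ± 6.25 TPM in CAR-Ms (SD, n = 3 each). The order of the pair differed between the groups: Ran stood above Ranbp1 in each CAR-Trem2-Ms sample, while Ranbp1 stood above Ran in each CAR-Ms sample.

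The largest fall that rested on many reads was that of Ranbp3l, a relative of the Xpo1 cofactor Ranbp3 that is known in mouse to export Smad proteins of the BMP pathway. Ranbp3l (ENSMUSG00000048424, chromosome 15, 8967949 to 9067335, plus strand) had 53, 43 and 65 reads in CAR-Trem2-Ms, against 1415, 1661 and 1547 reads in CAR-Ms. Its level averaged 4.85 ± 0.609 CPM in CAR-Trem2-Ms and 99.2 ± 3.36 CPM in CAR-Ms (SD, n = 3 each), a log2 fold change of -4.35 ± 0.10 (SE; edgeR, adjusted p = 2.5e-25). Ranbp3 averaged 97.8 ± 7.97 CPM in CAR-Trem2-Ms and 98.2 ± 2.16 CPM in CAR-Ms (SD, n = 3 each) and did not pass the test (log2 -0.01 ± 0.05 SE). Ranbp10 fell to 85.4% of the CAR-Ms level and Ranbp9 rose to 113.0%. Both are scaffold proteins, and both directions depended on scaling, since Ranbp10 was at 0.00 with upper quartile factors and Ranbp9 at -0.54 on log2(TPM + 1).

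Importin alpha genes fell together apart from Kpna2. Of the 5 tested of 6, 4 fell by at least 2-fold, 0 rose and Kpna2 did not pass. The summed level of the group, with Kpna2 by its own row only, was 226.0 to 230.6 CPM in CAR-Trem2-Ms and 784.8 to 805.4 CPM in CAR-Ms. Kpna1 (plus strand of chromosome 16, 35978750 to 36037131, ENSMUSG00000022905) had levels of 56.0, 52.2 and 59.8 CPM in CAR-Trem2-Ms, against 256.0, 258.5 and 252.4 CPM in CAR-Ms, a log2 fold change of -2.19 ± 0.05 (SE; edgeR, adjusted p = 7.6e-26). Kpna3 fell to 25.7%, Kpna4 to 30.8% and Kpna6 to 42.9% of the CAR-Ms level. Per length the 4 genes lay close together, at 11.8 to 13.9 TPM on average in CAR-Trem2-Ms and 54.3 to 87.0 TPM in CAR-Ms. Kpna7, an importin alpha of oocytes and early embryos, had 0 reads in all samples, which allows up to 3 counts per group, or 0.0867 per 1e6 reads in CAR-Trem2-Ms and 0.0672 per 1e6 reads in CAR-Ms (counting error only).

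Kpna2, an importin alpha known to be high in dividing cells, could not be measured from its own row. It had 27, 22 and 14 reads in CAR-Trem2-Ms, against 7, 14 and 41 reads in CAR-Ms, and the groups overlapped (log2 0.52 ± 0.48 SE; edgeR, adjusted p = 0.32). Without CAR-Ms replicate 3 its log2 fold change was 1.51 and passed the test. In GENCODE M21, 92.4% of the 50-base words of Kpna2 also occur in other genes. The main one is Gm10184, an intronless copy on chromosome 17 (89908462 to 89910449, minus strand), whose coding sequence differs from that of Kpna2 at 2 of 1587 bases. Both differences lie in the stretch from base 643 to base 792 of the coding sequence, shown here because they are the letters that can separate reads of the pair within it, with the differing bases in capitals.
Kpna2: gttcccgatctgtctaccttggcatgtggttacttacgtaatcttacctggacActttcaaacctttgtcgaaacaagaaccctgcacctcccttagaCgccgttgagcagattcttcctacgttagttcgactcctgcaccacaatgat
Gm10184: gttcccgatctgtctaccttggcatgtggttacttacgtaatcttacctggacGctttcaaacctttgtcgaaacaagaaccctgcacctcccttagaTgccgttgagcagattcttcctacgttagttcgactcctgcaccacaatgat
Gm10184 had 2227, 1722 and 2217 reads in CAR-Trem2-Ms, against 2996, 3525 and 3258 reads in CAR-Ms. It held 99.0% of the reads of the pair in CAR-Trem2-Ms and 99.4% in CAR-Ms. The sum of both genes, a quantity added after the data were seen, averaged 188.1 ± 2.57 CPM in CAR-Trem2-Ms and 211.1 ± 7.68 CPM in CAR-Ms (SD, n = 3 each), a log2 ratio of -0.17. Gm10184 alone had a log2 fold change of -0.17 ± 0.04 (SE; adjusted p = 0.00011), but 0.06 with upper quartile factors. Which of the pair the reads came from was not tested. The importin alpha sum above leaves out the reads of Gm10184. Per length Gm10184 averaged 103.8 ± 1.87 TPM in CAR-Trem2-Ms and 189.0 ± 6.96 TPM in CAR-Ms, above each importin alpha gene that fell. If those reads came from Kpna2, the fall of the summed level would be smaller in proportion.

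Most of importin beta and its family fell as well. Of 13 genes, 12 were tested, of which 10 fell, 7 of them by at least 2-fold, and 2 rose. The sum was 1549.1 to 1574.7 CPM in CAR-Trem2-Ms and 3818.7 to 3847.2 CPM in CAR-Ms. Kpnb1, importin beta itself (minus strand of chromosome 11, 97159714 to 97187881, ENSMUSG00000001440), had levels of 317.3, 316.8 and 323.3 CPM in CAR-Trem2-Ms, against 920.7, 915.6 and 925.3 CPM in CAR-Ms. The 2 groups were far apart next to their internal spread, at a log2 fold change of -1.53 ± 0.02 (SE; edgeR, adjusted p = 1.3e-28).

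Receptors that bind cargo directly followed. Tnpo1, which imports RNA binding proteins such as hnRNPA1, read 147.1, 148.2 and 141.1 CPM in CAR-Trem2-Ms, against 558.9, 561.1 and 566.1 CPM in CAR-Ms (log2 -1.95 ± 0.03 SE). Ipo7, which imports ribosomal proteins among other cargo, read 265.9, 247.0 and 252.5 CPM in CAR-Trem2-Ms, against 833.6, 848.8 and 843.2 CPM in CAR-Ms (log2 -1.72 ± 0.03 SE). Ipo7 had the highest TPM of the group averaged over all samples, 55.5 ± 1.44 TPM in CAR-Trem2-Ms and 285.1 ± 3.56 TPM in CAR-Ms (SD, n = 3 each). In neither gene did the groups overlap. Ipo11 fell to 30.6%, Ipo8 to 37.6%, Ipo5 to 39.1% and Tnpo3, the receptor of serine and arginine rich splicing factors, to 46.8% of the CAR-Ms level. Falls of under 2-fold were found for Ipo9 (64.0% of the CAR-Ms level), Ipo13 (82.3%) and Tnpo2 (87.7%). With upper quartile factors Ipo13 was at a log2 fold change of -0.05 and Tnpo2 at 0.04, and neither passed the test.

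Ranbp6 and Ipo4 went the other way. Ranbp6, a relative of Ipo5, averaged 38.4 ± 2.09 CPM in CAR-Trem2-Ms and 15.9 ± 1.38 CPM in CAR-Ms (SD, n = 3 each), a log2 fold change of 1.27 ± 0.10 (SE; edgeR, adjusted p = 3.2e-12). It was the largest rise among the members, and it had the lowest mean TPM of the called genes of its group, 8.40 ± 0.502 TPM in CAR-Trem2-Ms and 5.59 ± 0.466 TPM in CAR-Ms. In CAR-Trem2-Ms it differed from the next gene, Ipo11 at 8.90 ± 0.786 TPM, by less than the spread between samples. Ipo4, an importer of histones, rose to 131.0% of the CAR-Ms level, but fell on log2(TPM + 1), at -0.31. Gm49378 overlaps Ipo4 on the same strand and shares 59.5% of its 50-base words, with at most 47 reads in any sample. Ranbp17 had at most 1 read in any sample and was below the filter.

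**Figure D2:**
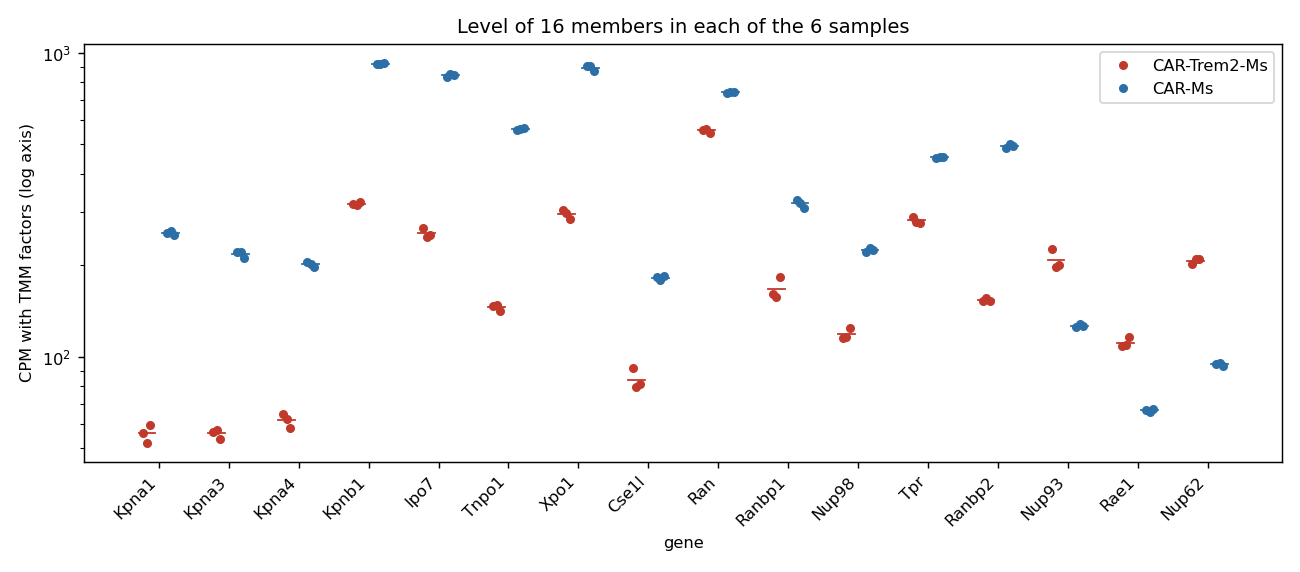
Level of 16 members in each sample, in CPM with TMM factors on a log axis, with CAR-Trem2-Ms (red) left of CAR-Ms (blue) and a line at each group mean. In 13 genes the CAR-Trem2-Ms points lie below the CAR-Ms points, and in Nup93, Rae1 and Nup62 they lie above, and levels of different genes are not comparable on this scale. On log2(TPM + 1), Nup93 and Rae1 stood at 0.03 and 0.02.

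All 7 exportins fell, 4 by at least 2-fold. Xpo1, the main exporter of proteins with leucine-rich export signals (plus strand of chromosome 11, 23256041 to 23298249, ENSMUSG00000020290), had levels of 304.6, 296.6 and 284.5 CPM in CAR-Trem2-Ms, against 906.1, 905.8 and 869.4 CPM in CAR-Ms. The groups did not overlap, at a log2 fold change of -1.60 ± 0.03 (SE; edgeR, adjusted p = 1e-27). Cse1l, which returns importin alpha to the cytoplasm, read 91.7, 79.7 and 81.3 CPM in CAR-Trem2-Ms, against 183.3, 179.6 and 184.2 CPM in CAR-Ms (log2 -1.11 ± 0.05 SE). Xpo4, which exports the translation factor eIF5A, fell to 28.9% and Xpo7 to 44.6% of the CAR-Ms level. Falls of under 2-fold were found for Xpo5 (58.8% of the CAR-Ms level), which exports microRNA precursors, Xpot (63.7%), which exports tRNA, and Xpo6 (73.6%), which exports actin. Once libraries were corrected for GC content and length, Xpo6 was at a log2 fold change of -0.04 and did not pass the test, while the other 6 still did.

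The exportins did not fall in proportion. Shares of a group's summed TPM within a sample do not depend on scaling between samples. Xpo1 took 35.4 ± 0.31% of exportin TPM in CAR-Trem2-Ms and 49.0 ± 0.99% in CAR-Ms (SD, n = 3 each). Xpo6 took 17.2 ± 0.52% in CAR-Trem2-Ms and 9.06 ± 0.10% in CAR-Ms, and Xpot took 18.8 ± 0.082% in CAR-Trem2-Ms and 12.6 ± 0.64% in CAR-Ms. Among importin beta and transportins, Tnpo1 took 7.30 ± 0.53% in CAR-Trem2-Ms and 15.8 ± 0.34% in CAR-Ms, while Tnpo2, its close relative, took 9.69 ± 0.29% in CAR-Trem2-Ms and 4.79 ± 0.18% in CAR-Ms. In deposited TPM the order of these relatives was thus opposite in the groups, with Tnpo2 above Tnpo1 in every CAR-Trem2-Ms sample and Tnpo1 above Tnpo2 in every CAR-Ms sample. Their log2 fold changes lay further apart on log2(TPM + 1) (Tnpo1 -3.03, Tnpo2 -0.92) than in counts corrected for GC content and length (-1.46 and -0.14). The order may therefore depend on how TPM was derived. Of the 50-base words of Tnpo1, 14.1% also occur in another gene.

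Nucleoporins changed less evenly. Of 30 tested, 20 fell (66.7%) and 6 rose (20.0%), and the median was -0.66. Of the 24 tested importins and exportins, 21 fell (87.5%) and 2 rose (8.33%), and the median was -1.19. Among all tested genes 40.1% fell and 40.9% rose, with a median of 0.03. Whether the 2 sets differ was not tested.

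The Y complex, the outer scaffold ring, held 9 members, of which 7 fell, 0 rose and Nup133 and Nup37 did not pass. None of the falls reached 2-fold with TMM factors, which depended on scaling. Nup160 and Nup98 were at -1.06 and -1.04 with total-count scaling and at -1.53 and -1.61 on log2(TPM + 1). With the correction for GC content and length they were at -0.52 and -0.53, and Nup43 was at -1.03. The summed level was 533.9 to 550.0 CPM in CAR-Trem2-Ms and 791.3 to 808.6 CPM in CAR-Ms. Nup160 fell to 52.5%, Nup43 to 58.4%, Nup107 to 64.8%, Nup85 to 71.1% and Seh1l to 73.4% of the CAR-Ms level. Nup98, whose precursor is cut into a repeat-bearing nucleoporin and the Y complex subunit Nup96, read 115.7, 116.0 and 124.9 CPM in CAR-Trem2-Ms, against 221.9, 228.6 and 224.2 CPM in CAR-Ms (log2 -0.92 ± 0.04 SE). Sec13, which is also a coat protein of secretory vesicles and had the highest TPM of the group, read 100.2, 81.5 and 91.6 CPM in CAR-Trem2-Ms, against 105.3, 100.6 and 105.3 CPM in CAR-Ms. The samples nearly touched, at 100.2 and 100.6 CPM. Its log2 fold change of -0.18 ± 0.06 (SE; edgeR, adjusted p = 0.0053) was lost without CAR-Trem2-Ms replicate 2 (-0.11) and was 0.05 with upper quartile factors.

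In the inner ring, 3 members fell, Nup93 rose and Nup155 did not pass. Nup35, a ring subunit that touches the membrane, fell to 47.4% of the CAR-Ms level, with 44.9% of its 50-base words shared with other genes. Nup205 fell to 54.2% and Nup188 to 84.6%, although Nup188 was at -0.01 with upper quartile factors. Nup93, which ties the ring together (plus strand of chromosome 8, 94214564 to 94317227, ENSMUSG00000032939), had levels of 226.6, 197.4 and 200.4 CPM in CAR-Trem2-Ms, against 125.4, 128.1 and 126.7 CPM in CAR-Ms. The groups did not overlap (log2 0.72 ± 0.04 SE; edgeR, adjusted p = 1.3e-14), but on log2(TPM + 1) its change was 0.03 and did not pass. As a share of the ring's TPM, Nup93 took 49.5 ± 2.7% in CAR-Trem2-Ms and 26.1 ± 1.5% in CAR-Ms, and Nup35 took 21 ± 3.3% in CAR-Trem2-Ms and 37.7 ± 2.7% in CAR-Ms (SD, n = 3 each).

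In the central channel, the repeat-bearing core of the pore, Nup62 rose and its partners fell. Nup62 (plus strand of chromosome 7, 44816088 to 44830812, ENSMUSG00000109511) had levels of 201.5, 209.9 and 209.5 CPM in CAR-Trem2-Ms, against 94.7, 95.7 and 93.4 CPM in CAR-Ms. Every CAR-Trem2-Ms sample was above every CAR-Ms sample, at a log2 fold change of 1.13 ± 0.04 (SE; edgeR, adjusted p = 2.4e-20). The rise of Nup62 was smaller on log2(TPM + 1), at 0.47, and with the correction for GC content and length, at 0.63. Nup54, its partner in the channel complex, read 68.8, 71.5 and 71.9 CPM in CAR-Trem2-Ms, against 125.4, 126.8 and 121.9 CPM in CAR-Ms (log2 -0.82 ± 0.05 SE). Gm15790 shares 20.3% of the 50-base words of Nup54, so part of the reads of Nup54 could be shared. Nup62 took 71.4 ± 0.30% of the channel's TPM in CAR-Trem2-Ms and 37.9 ± 0.48% in CAR-Ms. Nup54 took 28.6 ± 0.30% in CAR-Trem2-Ms and 61.4 ± 0.45% in CAR-Ms. The channel's sum, with Nupl1 by its own row only, was 270.4 to 281.4 CPM in CAR-Trem2-Ms and 218.0 to 224.3 CPM in CAR-Ms. Per length, however, that sum was lower, at 117.4 ± 7.19 TPM in CAR-Trem2-Ms and 158.7 ± 3.07 TPM in CAR-Ms (SD, n = 3 each). Il4i1 shares exon sequence with Nup62, at 1.8% of the 50-base words of Nup62, and had 7, 14 and 0 reads in CAR-Trem2-Ms, against 0, 0 and 1 in CAR-Ms, far below the reads of Nup62.

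Nupl1, now named Nup58 and the remaining channel subunit, shared its locus with another annotated gene. Its row had 2, 0 and 0 reads in CAR-Trem2-Ms, against 32, 30 and 40 in CAR-Ms, a ratio of reads per total of 0.0253 with a counting interval at 95% confidence from 0.00303 to 0.0938. Gm49336 covers 48.8% of the exon bases of Nupl1 on the same strand (chromosome 14, 60205282 to 60251507, minus strand). It had 686, 531 and 618 reads in CAR-Trem2-Ms, against 2093, 2372 and 1996 in CAR-Ms, a log2 fold change of -1.32 ± 0.05 (SE; edgeR, adjusted p = 5.7e-19). The sum of both, also added after the data were seen, averaged 55.6 ± 2.5 CPM in CAR-Trem2-Ms and 140.8 ± 5.8 CPM in CAR-Ms (SD, n = 3 each), a log2 ratio of -1.34. The channel's sum and shares above leave out Gm49336, which averaged 15.0 ± 0.822 TPM in CAR-Trem2-Ms and 61.6 ± 2.76 TPM in CAR-Ms. Counting it would put the channel's summed CPM lower in CAR-Trem2-Ms and shrink the share of Nup62 in both groups. Nup62cl, a relative of Nup62, had 0 reads in all samples.

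**Figure D3:**
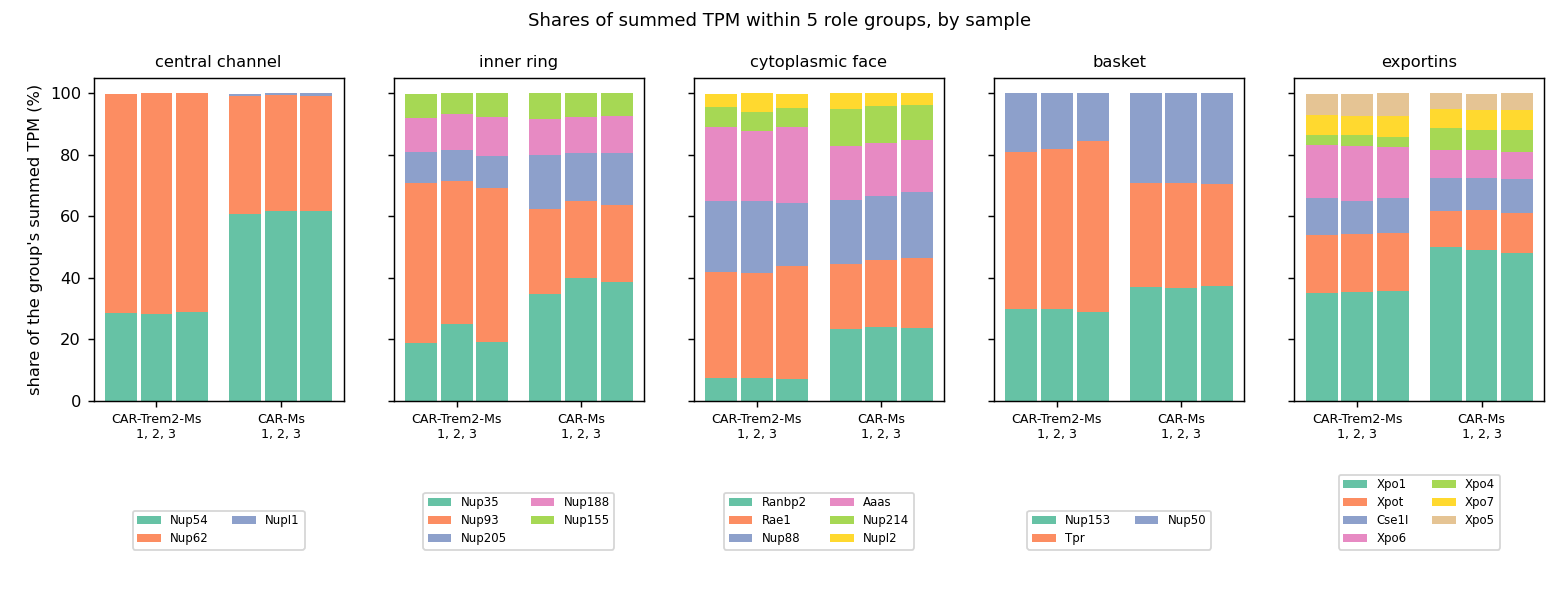
Share of a group's summed TPM (percent, y axis) taken by each member in each sample, for 5 role groups, with replicates 1, 2 and 3 of CAR-Trem2-Ms left of those of CAR-Ms. Nup62 takes 71.4% of the central channel in CAR-Trem2-Ms and 37.9% in CAR-Ms, and Ranbp2 takes 7.25% of the cytoplasmic face in CAR-Trem2-Ms and 23.6% in CAR-Ms. The channel counts Nupl1 by its own row only, without Gm49336.

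Of 4 membrane anchors, 3 fell and Nup210l rose. Ndc1, a transmembrane nucleoporin that had the highest TPM of the group, fell to 46.2%, Pom121 to 53.6% and Nup210 to 61.6% of the CAR-Ms level. Pom121 shares 11.9% of its exon bases with Nsun5 on the opposite strand, and no source says that counting used strand. Nup210l, a relative of Nup210, averaged 20.0 ± 3.24 CPM in CAR-Trem2-Ms and 12.4 ± 0.213 CPM in CAR-Ms (SD, n = 3 each; log2 0.69 ± 0.13 SE), but 0.00 on log2(TPM + 1).

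The cytoplasmic face split, with 3 of 6 members higher, 2 lower and Nupl2 not past the test. Ranbp2, the giant filament protein that binds Ran and carries a SUMO ligase region (plus strand of chromosome 10, 58446920 to 58494356, ENSMUSG00000003226), had levels of 152.7, 156.6 and 152.5 CPM in CAR-Trem2-Ms, against 486.8, 501.6 and 493.4 CPM in CAR-Ms. The groups stood far apart (log2 -1.68 ± 0.03 SE; edgeR, adjusted p = 4.1e-27). Nup214, a platform for messenger RNA export, fell to 52.7% of the CAR-Ms level. Rae1, a messenger RNA export factor that binds Nup98, read 108.2, 109.2 and 115.8 CPM in CAR-Trem2-Ms, against 66.9, 66.1 and 67.6 CPM in CAR-Ms (log2 0.73 ± 0.05 SE), with 0.02 on log2(TPM + 1). Aaas rose to 137.0% and Nup88, the partner of Nup214, to 108.0% of the CAR-Ms level, and both reversed on log2(TPM + 1), at -0.19 and -0.56. Within the group's TPM, Ranbp2 took 7.25 ± 0.25% in CAR-Trem2-Ms and 23.6 ± 0.41% in CAR-Ms, while Rae1 took 35.1 ± 1.4% in CAR-Trem2-Ms and 21.9 ± 0.69% in CAR-Ms (SD, n = 3 each).

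All 3 basket genes fell. Nup153, which docks transport complexes on the nuclear side, averaged 178.3 ± 8.10 CPM in CAR-Trem2-Ms and 490.7 ± 2.12 CPM in CAR-Ms (SD, n = 3 each; log2 -1.46 ± 0.03 SE). Nup50, which helps to release importin alpha cargo, fell to 40.2% of the CAR-Ms level. Tpr, the filament of the basket, read 289.3, 278.4 and 274.8 CPM in CAR-Trem2-Ms, against 451.6, 454.8 and 453.1 CPM in CAR-Ms (log2 -0.69 ± 0.03 SE; edgeR, adjusted p = 1.1e-18). Tpr took 53.0 ± 2.4% of the basket's TPM in CAR-Trem2-Ms and 33.8 ± 0.55% in CAR-Ms.

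Transcript length and GC content moved with the changes, among members and among all genes. The longest annotated transcript had a median of 4764 bases and 47.1% GC over tested members, and 3376 bases and 49.8% GC over all tested genes. Across the 60 members, which share the same 6 libraries, Spearman's rho of the log2 fold change was -0.38 with length and 0.54 with GC content, and across all tested genes -0.31 and 0.28. In the longest quintile of transcripts the median log2 fold change was -0.91 over 26 members and -0.46 over all genes, and in the shortest quintile -0.18 over 5 members and 0.47 over all genes. By GC content, the lowest quintile gave -1.6 over 17 members and -0.32 over all genes, and the highest quintile 0.05 over 4 members and 0.54 over all genes. The members' median was below that of all genes in every quintile by length and by GC content, over as few as 4 members. The part of length and GC content in single changes was tested as far as the correction above goes: it gave 45 members lower, 7 higher and 8 not past, against 43.8% lower and 35.8% higher over all genes. Under it Ranbp9, Aaas, Ipo4 and Xpo6 no longer passed, while Nup37 was called lower (log2 -0.21, adjusted p = 0.012 by edgeR) and Nup155 higher (log2 0.32, adjusted p = 3.2e-05 by edgeR).

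**Figure D4:**
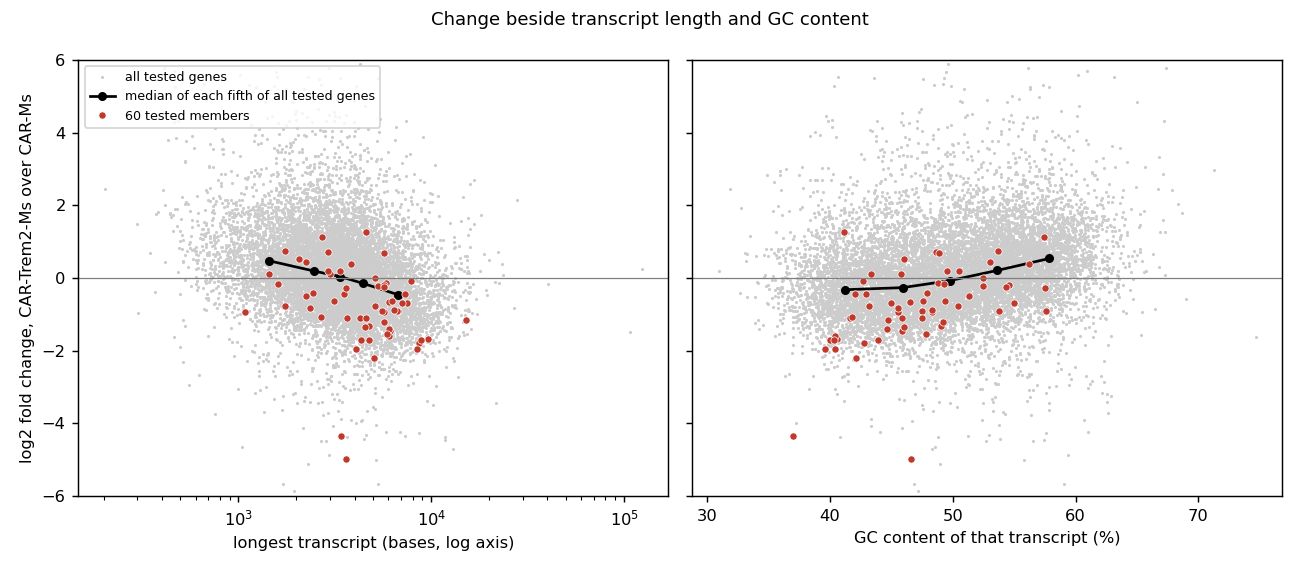
Log2 fold change (CAR-Trem2-Ms over CAR-Ms, y axis) against the longest transcript in bases (log axis, left) and its GC content in percent (right) for all tested genes (grey), the median of each quintile of all genes (black) and the 60 tested members (red). The black line runs down with length and up with GC content, and most members lie below it.

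The other genes of nuclear transport are given by their counts, with no test of the lists themselves, beside 40.1% of all tested genes lower and 40.9% higher. The counts moved with the scaling: with upper quartile factors the messenger RNA export genes had 9 higher and 8 lower of 24 (median 0.01). Of all tested genes, 50.1% were then higher and 31.6% lower (median 0.26). Of 11 genes of the Ran cycle and adaptors, 9 fell, 1 rose and 1 did not pass (median -0.49), among them Rcc1, the nuclear exchange factor of Ran (log2 -0.22), Rangap1, its activating protein (-0.24), Nutf2, which carries Ran into the nucleus (-0.84), and Hikeshi, the importer of Hsp70 (-0.86). With upper quartile factors Rcc1 was at 0.01 and Rangap1 at -0.01, and neither passed the test. Of 24 tested genes of messenger RNA export, 16 fell, 7 rose and 1 did not pass (median -0.22). Nxf1, the export receptor, averaged 441.8 ± 13.3 CPM in CAR-Trem2-Ms and 292.0 ± 3.60 CPM in CAR-Ms (SD, n = 3 each; log2 0.60), but -0.15 on log2(TPM + 1), and its adaptor Alyref fell (-1.20) while its relative Alyref2 rose (2.79), to a level of 7.38 ± 1.06 CPM in CAR-Trem2-Ms against 1.06 ± 0.251 CPM in CAR-Ms. Of 10 genes of SUMO conjugation, which modifies proteins at the pore, 7 fell, 2 rose and 1 did not pass (median -0.52), with Senp1, a pore-associated SUMO protease, at -1.37 and Pias4, a SUMO ligase, at 1.46.

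In the nuclear envelope and lamina, 14 of 22 genes fell, 5 rose and 3 did not pass (median -0.26). Ahctf1, also called ELYS, the protein that seeds pore assembly on chromatin, averaged 116.1 ± 3.20 CPM in CAR-Trem2-Ms and 407.6 ± 11.2 CPM in CAR-Ms (SD, n = 3 each; log2 -1.81 ± 0.04 SE). Syne2 fell (-3.43) and Syne1 rose (2.13), both nesprins that link the envelope to the cytoskeleton. Genes of cell division were mostly lower too. Of 23 DNA replication genes, 21 fell and 1 rose (median -0.96), with Mcm4, a subunit of the replicative helicase, at -2.59 and Ccne2, a cyclin of the entry into DNA synthesis, at -2.69. Of mitosis genes, 9 of 12 fell and 2 rose (median -0.30), with Mki67, a marker of dividing cells, at -1.55 and Bub1, a checkpoint kinase, at -1.49. The mitosis genes that rose were Cdc20, an activator of the anaphase-promoting complex, at 1.45, with 303.1 CPM in CAR-Trem2-Ms and 111.2 CPM in CAR-Ms, and Ccnb2, a mitotic cyclin, at 0.93. With upper quartile factors 6 mitosis genes were lower and 3 higher, against 31.6% and 50.1% of all tested genes. The part of cell division in the changes of the members was not tested.

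**Figure D5:**
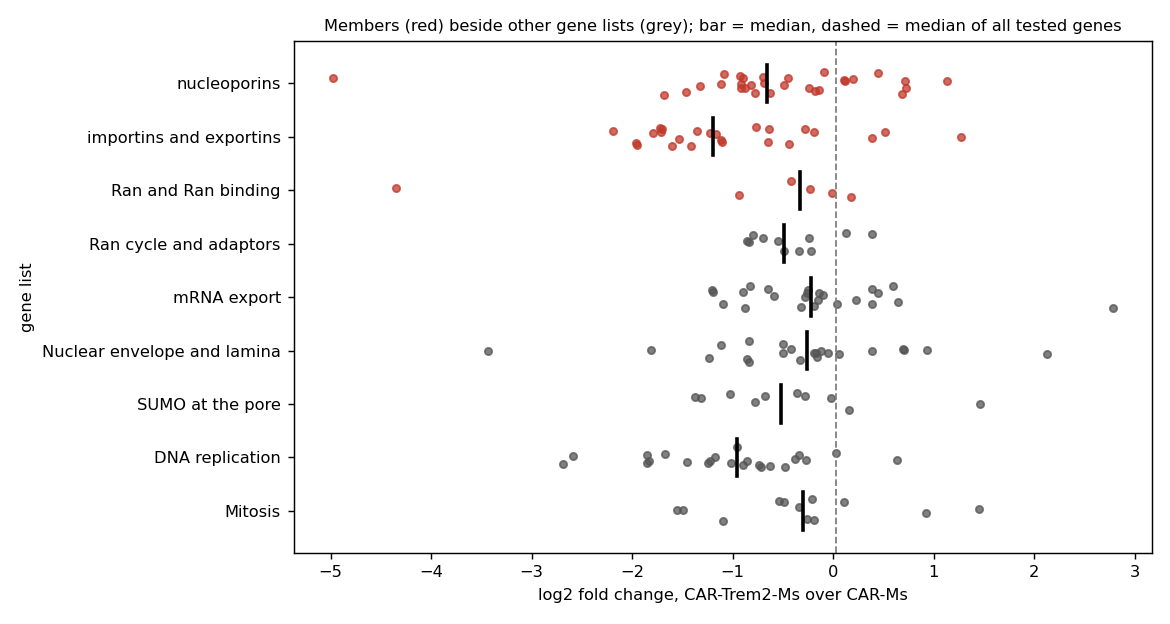
Log2 fold change (CAR-Trem2-Ms over CAR-Ms, x axis) of each tested gene, for 3 sets of members (red) and 6 lists of related genes (grey), with a bar at each median and a dashed line at the median of all tested genes, 0.03. The medians of the lists run from -0.96 for DNA replication to -0.22 for messenger RNA export, and importins and exportins stand at -1.19. With upper quartile factors the median of messenger RNA export was 0.01 and that of all tested genes 0.26.

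Promoter windows from RefSeq (GRCm38.p6, from 250 bases before to 50 after the start) were matched for 50 of the 63 members and searched on both strands for the letters of 4 factors. CACGTG, the E-box, occurred in 9 of 50 members (18%), 12% of 9054 tested genes and 8.09% of 27025 genes in all. GCGCATGC, of NRF1, occurred in 7 members (14%), 6.39% of tested genes and 3.05% in all, and CCGGAAGT, of ETS factors, in 7 members (14%), 10% of tested genes and 4.31% in all. Any of TTTGGCGC, TTTCCCGC and TTTCGCGC, of E2F, occurred in 3 members (6.0%), 4.30% of tested genes and 2.12% in all. The words do not overlap in letters, except that GCGCATGCGC is its own reverse complement and so holds the NRF1 word on both strands. Matches describe letters and show no binding. The 250 bases before the start are printed for Ran and Ranbp1, the GTPase and its partner, for Ipo7, and for Nup62, the riser of the channel, with matches in capitals. They lie at chr5:129019906-129020155 (plus strand), chr16:18248695-18248944 (minus), chr7:110018065-110018314 (plus) and chr7:44815838-44816087 (plus).
Ran: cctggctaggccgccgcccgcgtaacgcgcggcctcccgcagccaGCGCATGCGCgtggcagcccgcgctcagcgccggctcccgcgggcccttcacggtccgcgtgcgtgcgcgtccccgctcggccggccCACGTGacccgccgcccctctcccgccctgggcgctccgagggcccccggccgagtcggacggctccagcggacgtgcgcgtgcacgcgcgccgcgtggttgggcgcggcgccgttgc
Ranbp1: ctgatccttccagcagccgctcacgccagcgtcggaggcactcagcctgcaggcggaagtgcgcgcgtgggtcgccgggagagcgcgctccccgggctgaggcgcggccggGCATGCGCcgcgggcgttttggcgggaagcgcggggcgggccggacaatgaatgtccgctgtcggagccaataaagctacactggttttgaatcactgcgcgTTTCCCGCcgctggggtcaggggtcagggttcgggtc
Ipo7: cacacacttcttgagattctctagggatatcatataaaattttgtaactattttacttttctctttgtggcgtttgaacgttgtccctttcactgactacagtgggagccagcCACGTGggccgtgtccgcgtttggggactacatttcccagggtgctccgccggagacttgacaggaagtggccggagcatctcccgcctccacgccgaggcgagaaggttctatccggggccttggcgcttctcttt
Nup62: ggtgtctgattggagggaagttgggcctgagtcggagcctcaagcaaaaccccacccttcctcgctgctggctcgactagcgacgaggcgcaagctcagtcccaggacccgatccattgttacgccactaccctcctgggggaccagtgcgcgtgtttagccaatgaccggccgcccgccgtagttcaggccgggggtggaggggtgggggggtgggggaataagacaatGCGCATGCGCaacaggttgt
The Ran window holds an E-box and the NRF1 word, the Ranbp1 window an NRF1 and an E2F word, and the Nup62 window the NRF1 word. The Ipo7 window holds an E-box, and its E2F word lies after the start and is not printed.

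The log2 fold change in the authors' deposited table is the ratio of mean TPM, so its directions can differ from those of counts. In the authors' deposited table Ran stood at -1.10 and Nup62 at 0.48, while Aaas at -0.19 and Ipo4 at -0.31 have the sign opposite to that of their counts.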

How the data were processed

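Per the labels' protocols, RNA came from a Trizol harvest and libraries from a SMARTER mRNA-Seq kit. The submitters' processing notes name StringTie 1.3.1, HISAT2, Bowtie2 2.2.8 and fastp 0.18.0, with mm10 as the genome. The sources used here do not give how reads were counted, with what annotation and whether by strand. The authors deposited a table of whole-number read counts per gene and sample, with TPM values scaled by the authors for length within each library. The deposited table also gives the authors' log2 fold change, which equalled the log2 ratio of mean TPM with a mean of 0 replaced, and a p-value with its FDR, whose tool is likewise not given. Counting errors in these values cover reads, which PCR can copy, not molecules.

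The main test used edgeR 4.0.16 under R 4.3.3 on the counts (quasi-likelihood test, TMM factors, filterByExpr, Benjamini-Hochberg over 11402 genes, called at an adjusted p under 0.05). Standard errors were derived from each fold change with its F value. The fit was also run on simulated counts in which few genes changed, with no effect of length or GC content. It therefore does not check the calls in these data, where most genes were called. Replicates differed by more than counting noise (chi-square per degree of freedom of 2.19 to 3.34), so none was treated as a copy of another. Each of the 6 samples counted once, although this does not show that they were independent cultures. Names, positions, lengths, overlaps and shared words of 50 bases came from GENCODE M21 (GRCm38), which held all 63 members. Alternatives were RLE and upper quartile factors, total-count scaling, no mitochondrially encoded genes, 2 other filters, DESeq2 1.42.0, limma-voom and limma-trend 3.58.1 on log2(TPM + 1) (TPM of at least 1 in 3 samples), a replicate block, leaving out each sample, stricter thresholds and a loess correction of each library for GC content and length. Named were Ran, Kpnb1, Kpna2, Xpo1, Cse1l, Nup62, Nup98 and Tpr, from each role group the 3 called members with the largest change among those with at least 50 reads and no overlap and the member with the highest TPM, members against their group's majority, those not past the test or below the filter, and up to 2 genes of each list of related genes. Other members are given by value to complete their group, and Rcc1, Rangap1, Nxf1, Ahctf1, Cdc20, Ccnb2, Cd3d, Cd8a and Lck were named after their values were seen. The members and lists were chosen with earlier results of these data known. Planned protein comparisons were not made.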

Additional observations from a re-analysis of the deposited data

How the results depend on the processing

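The balance of falls over rises among members held under each alternative run. Requiring an absolute log2 fold change of at least 1 gave 24 members called, 2 higher and 22 lower. On log2(TPM + 1), 2 members were called higher. The members' median, -0.77, was -0.54 with upper quartile factors, -0.90 with total-count scaling, -1.39 on log2(TPM + 1) and -0.63 with the correction for GC content and length. Leaving out each sample gave 51 to 54 members called, 7 to 9 higher and 44 to 46 lower, and medians from -0.80 to -0.75. Over all 11573 to 11645 genes tested in these runs, 4497 to 4662 were higher and 4414 to 4575 lower.

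Some small changes of single members turned round. With upper quartile factors the log2 fold change was 0.05 for Sec13, 0.00 for Ranbp10, 0.22 for Ranbp3, 0.04 for Tnpo2 and 0.14 for Nup155. On log2(TPM + 1) it was -0.54 for Ranbp9, -0.64 for Nup37, -0.19 for Aaas, -0.56 for Nup88, -0.46 for Nupl2 and -0.31 for Ipo4. It was -0.01 for Nup88 with total-count scaling, -0.21 for Nup37 and 0.32 for Nup155 with the correction, and -0.17 for Kpna2 when summed with Gm10184, a sum added after the data were seen. The cause of these turns was not tested.

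Lists of related genes moved with the scaling. Their medians with upper quartile factors were -0.26 (Ran cycle and adaptors), 0.01 (messenger RNA export, with 9 genes higher and 8 lower), -0.03 (nuclear envelope, with 7 genes higher and 10 lower), -0.28 (SUMO), -0.73 (DNA replication) and -0.07 (mitosis, with 3 genes higher and 6 lower), with 2 Ran cycle and 2 replication genes higher. With total-count scaling they were -0.62, -0.35, -0.38, -0.64, -1.08 and -0.42 in that order of lists. On log2(TPM + 1) they were -1.01, -0.94, -0.98, -1.23, -1.62 and -1.02 in that order, with 0, 1, 2, 1 and 0 genes higher in the first 5 lists. The SUMO list had 1 gene higher, not 2, with RLE and total-count scaling, without mitochondrially encoded genes, without a filter and with the replicate block. Leaving out each sample gave 1 to 2 genes higher in the Ran cycle and the SUMO lists, and medians from -1.05 to -0.86 for replication.

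The replicate block (replicate numbers 1 to 3) gave 9 members higher and 45 lower and a median of -0.77. Over all 11402 tested genes it gave 4627 higher and 4561 lower. Same-numbered samples had correlations of deviations of 0.0283, -0.0274 and 0.0319, so the numbers were not taken to pair samples. The rows of Nupl1 and Kpna2 held few of the reads of their pairs, and how shared reads were assigned was not tested.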
